A study of Mus musculus with 6 samples.

Results

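The genes described here are 10 transporters of bile constituents and organic anions in hepatocytes, chosen by symbol for their known role from a table of 22173 gene symbols, with earlier results of these data known. All 10 were measured in every library and all 10 were among the 10681 genes tested. By role they comprised 5 carriers of the sinusoidal (basolateral) membrane that take solutes up from blood (Slc10a1, Slco1a1, Slco1a4, Slco1b2 and Slco2b1), 4 pumps of the canalicular membrane that export into bile (Abcb11, Abcb4, Abcc2 and Abcg2) and 1 basolateral export pump (Abcc3). RNA-seq had been done on livers of 6 wild-type mice, 3 given the small molecule DDK, which the series title calls a limonoid, and 3 given vehicle. All 6 animals ate the HFHC diet, a name the labels leave unexpanded, for 16 weeks from an age of 6 weeks, and received DDK or vehicle in the last 4 weeks. No group on another diet was analysed here, and the labels name no strain, sex or dose. The question addressed by the series is how DDK acts on steatohepatitis.

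Hepatocytes move bile acids, bilirubin and many drugs from blood to bile in one direction. Uptake carriers on the blood side bring them in, enzymes conjugate them, and ATP-driven pumps on the canalicular side drive them out, with a second route back to blood through basolateral pumps. In cholestatic and inflamed liver, transcripts of uptake carriers are known to be reduced while basolateral export is often raised, and nuclear receptors that sense bile acids and drugs control many of these genes.

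The 2 changes in this set that held under every processing choice tried were decreases, one on each side of the cell. Slco1b2, the OATP1B2 carrier for sodium-independent uptake of bile acids, bilirubin and drugs, was 2.76-fold lower in mean FPKM (fragments scaled to gene length and library size) in DDK livers. Abcb4, the MDR2 floppase that puts phosphatidylcholine into bile, was 1.84-fold lower. Slc10a1 (NTCP), the sodium-dependent bile acid carrier, and Abcb11 (BSEP), the bile salt export pump, did not pass the test in either direction as deposited, and both passed as lower after rescaling to TPM.

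Among the 10 transporters, 4 were lower (Slco1b2, Abcb4, Abcc2 and Abcc3) and 1 was higher (Slco1a4) in DDK livers by limma on log2(FPKM + 1) at a Benjamini-Hochberg adjusted p under 0.05. Of all 10681 genes tested, 40.5% passed, 30.3% lower and 10.2% higher, so a count of 5 in 10 is near the background of these livers. The p-values set the group difference against the spread between these livers, which limma draws toward a trend over all genes. In whole liver, fewer cells of a type and less RNA per cell cannot be told apart. The median log2 fold change of the 10 was -0.33, against -0.23 for all genes tested. After median-ratio scaling, which centres the libraries on their typical gene, 2 of the 10 remained lower (Slco1b2 and Abcb4) and 1 higher (Slco1a4), against 15.4% and 18.4% of all genes (33.8% together), and the medians were -0.03 and 0.00. As deposited, the values of the groups did not overlap for 5 of the 10, all lower (Slc10a1, Slco1b2, Slco2b1, Abcb4 and Abcc3), against 53.3% of all genes, 39.2% lower and 14.1% higher. After median-ratio scaling they did not overlap for 2 higher (Slc10a1 and Slco1a4) and 2 lower (Slco1b2 and Abcb4), against 25.7% and 23.0% of all genes, 48.7% together. With DDK liver 1 or 2, or vehicle liver 2 or 3, left out, 2 passed as lower, and with DDK liver 2 or 3, or vehicle liver 1 or 2, left out, 0 passed as higher.

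For 9 of the 10 transporters the RefSeq promoter table (build GRCm38.p6) held at least 1 start site, and none was listed for Abcc3. The 250 bases upstream of the start are shown for Slco1b2 and Abcb4, whose decreases were the most stable, for Abcc2, which fell with them, and for Slco1a4, the neighbour of Slco1b2 that moved the other way. They are written 5′ to 3′ on the gene's strand, and capitals mark matches on either strand to the motifs named after them.
Slco1b2, chr6:141629268-141629517, plus strand: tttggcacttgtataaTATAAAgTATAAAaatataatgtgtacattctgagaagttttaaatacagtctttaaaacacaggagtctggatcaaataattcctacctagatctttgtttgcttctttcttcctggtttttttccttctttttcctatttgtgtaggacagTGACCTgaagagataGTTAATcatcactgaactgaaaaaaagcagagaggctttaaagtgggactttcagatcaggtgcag
Slco1a4, chr6:141856221-141856470, minus strand: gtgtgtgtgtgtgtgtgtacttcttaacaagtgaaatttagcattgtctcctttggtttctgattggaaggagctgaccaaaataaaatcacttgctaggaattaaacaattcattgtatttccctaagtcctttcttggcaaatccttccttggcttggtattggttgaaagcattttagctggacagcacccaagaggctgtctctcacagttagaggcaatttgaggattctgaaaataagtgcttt
Abcb4, chr5:8893471-8893720, plus strand: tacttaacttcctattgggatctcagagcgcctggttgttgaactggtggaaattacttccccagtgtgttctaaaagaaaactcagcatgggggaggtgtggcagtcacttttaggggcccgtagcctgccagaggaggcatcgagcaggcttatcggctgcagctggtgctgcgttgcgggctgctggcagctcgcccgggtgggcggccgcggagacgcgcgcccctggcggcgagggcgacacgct
Abcc2, chr19:43782058-43782307, plus strand: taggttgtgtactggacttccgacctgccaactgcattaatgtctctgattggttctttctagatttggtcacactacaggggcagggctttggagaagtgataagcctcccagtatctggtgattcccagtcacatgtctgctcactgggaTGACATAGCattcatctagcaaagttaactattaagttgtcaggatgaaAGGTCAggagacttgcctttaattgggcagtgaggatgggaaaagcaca

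The Slco1b2 window held the nuclear receptor core AGGTCA on the minus strand, 81 to 76 bases before the start, and the HNF1 core GTTAAT 66 to 61 bases before it, as well as 2 copies of TATAAA. The Abcc2 window held AGGTCA 49 to 44 bases before the RefSeq start and the antioxidant response core TGACNNNGC 98 to 90 bases before it. The GENCODE M21 gene begins inside this window, at chr19:43782192, and both matches lie after that position. The windows of Abcb4 and Slco1a4 held none of the 6 motifs searched. AGGTCA also occurred upstream of Slc10a1, Slco1a1, Abcb11 and Abcg2, which did not pass the test as deposited, but not of Slco2b1. It was therefore not particular to the transcripts that fell. Over all 32851 promoter windows of that length, 14.0% held AGGTCA on either strand, 6.43% GTTAAT, 12.4% TATAAA and 10.2% TGACNNNGC. The exact inverted repeat AGGTCANTGACCT, the consensus form of the element of the bile acid receptor FXR, occurred in 2 windows. The exact direct repeat AGGTCANAGGTCA occurred in 11, and none of these windows was at these transporters. Only exact letters were searched, so a near match to the inverted repeat, such as aggccatTGACCT upstream of Abcb11, was not counted. Both exact repeats contain AGGTCA, and a match is a description of letters, not evidence that a factor binds.

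Slco1b2 (ENSMUSG00000030236.10, chr6:141629518-141686646, plus strand, GRCm38) stood at an FPKM of 218, 472 and 384 in vehicle livers 1 to 3 and at 133, 121 and 136 in DDK livers 1 to 3. All DDK livers were below all vehicle livers, and vehicle liver 1 was the nearest to them. The mean fell from 358 ± 129 to 130.0 ± 7.87 (SD, n = 3 per group), a log2 fold change of -1.39 ± 0.24 (SE, 95% interval -1.93 to -0.84, limma adjusted p = 0.00305). It was called in all 17 alternatives, with log2 fold changes from -1.71 to -1.08 and adjusted p up to 0.0247. Between 10849 and 54443 fragments per library lay behind these values, so the spread of the vehicle livers (coefficient of variation 36.04%) was far above counting error, which was 0.960% at the lowest of these counts.

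**Figure D1:**
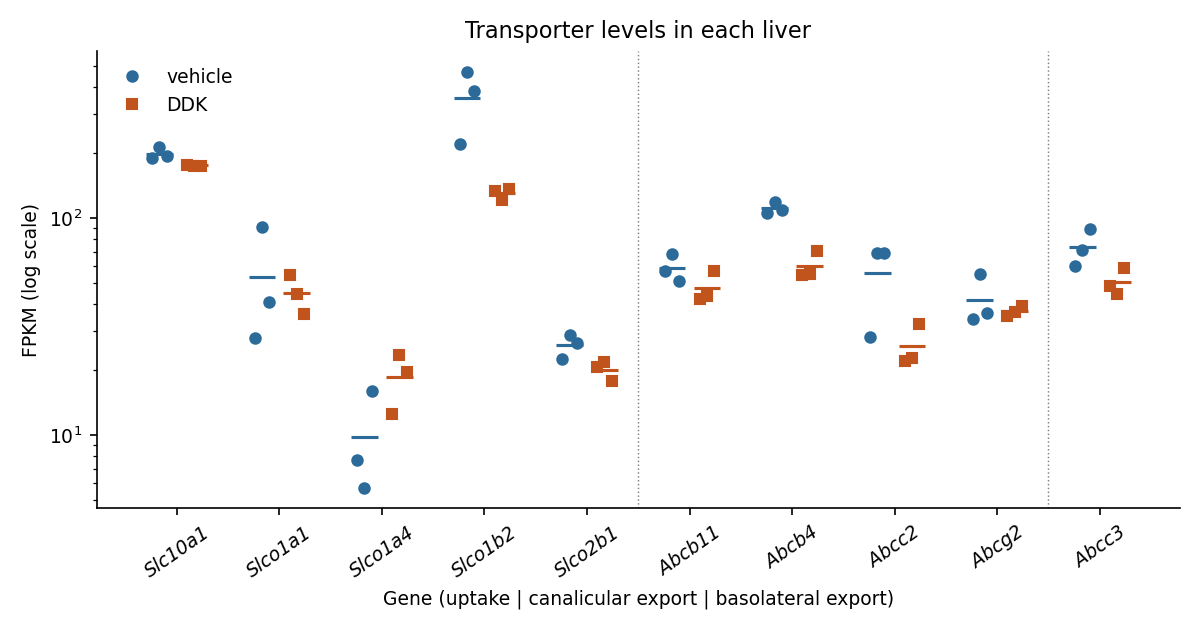
FPKM on a log axis for each of the 10 transporters (x axis, ordered by role), with a point per liver (circles vehicle, squares DDK) and a bar at the group mean. Slco1b2 and Abcb4 are separated between the groups, while Slco1a1 spans 28.1 to 91.3 within the vehicle livers.

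Slc10a1 (ENSMUSG00000021135.8, chr12:80953183-80968705, minus strand) stood at 190, 212 and 192 in vehicle livers 1 to 3 and at 176, 173 and 174 in DDK livers 1 to 3. The DDK livers were almost equal to each other, with a coefficient of variation of 0.697% against a counting error of 0.994% at the lowest fragment count. All of them were below the vehicle livers, as were the DDK livers for 39.2% of all genes, but the difference did not pass limma (log2 fold change -0.18 ± 0.12, 95% interval -0.44 to 0.08, adjusted p = 0.238). Its direction rested on the scaling. After rescaling to TPM it passed as lower (log2 fold change -0.42, adjusted p = 0.0186), while after median-ratio scaling the DDK livers, at 188, 200.2 and 188, were all above the vehicle livers, at 186, 184 and 157 (log2 fold change 0.13, adjusted p = 0.52).

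A ratio of 2 genes within a library does not depend on a scaling by 1 factor per library, such as median-ratio scaling or TPM. With 3 livers per group a two-sided exact permutation test cannot give a p below 0.1, so ratios are given as values without a test. The ratio of Slco1b2 to Slc10a1 FPKM, chosen after the values were seen, was 1.15, 2.23 and 2.0003 in vehicle livers 1 to 3 and 0.758, 0.698 and 0.780 in DDK livers 1 to 3. By FPKM as deposited, Slco1b2 was the highest of the 10 transcripts in every vehicle liver, and Slc10a1 in every DDK liver. The length behind the deposited FPKM of Slco1b2 was 3373 bases, against 4929 bases of exon in GENCODE M21, and 2197 against 2199 for Slc10a1. With the GENCODE lengths, an alternative chosen after the values were seen, Slc10a1 (190) was above Slco1b2 (149) in vehicle liver 1, while Slco1b2 was still the highest in vehicle livers 2 and 3 and Slc10a1 in all DDK livers. In summed FPKM of the 5 uptake carriers, the share of Slco1b2 was 46.8%, 58.3% and 58.3% in vehicle livers 1 to 3 and 33.6%, 31.5% and 35.4% in DDK livers 1 to 3. The share of Slc10a1 was 40.7%, 26.1% and 29.1% in vehicle and 44.3%, 45.2% and 45.4% in DDK livers. These shares describe transcripts per deposited length, not transport capacity.

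**Figure D2:**
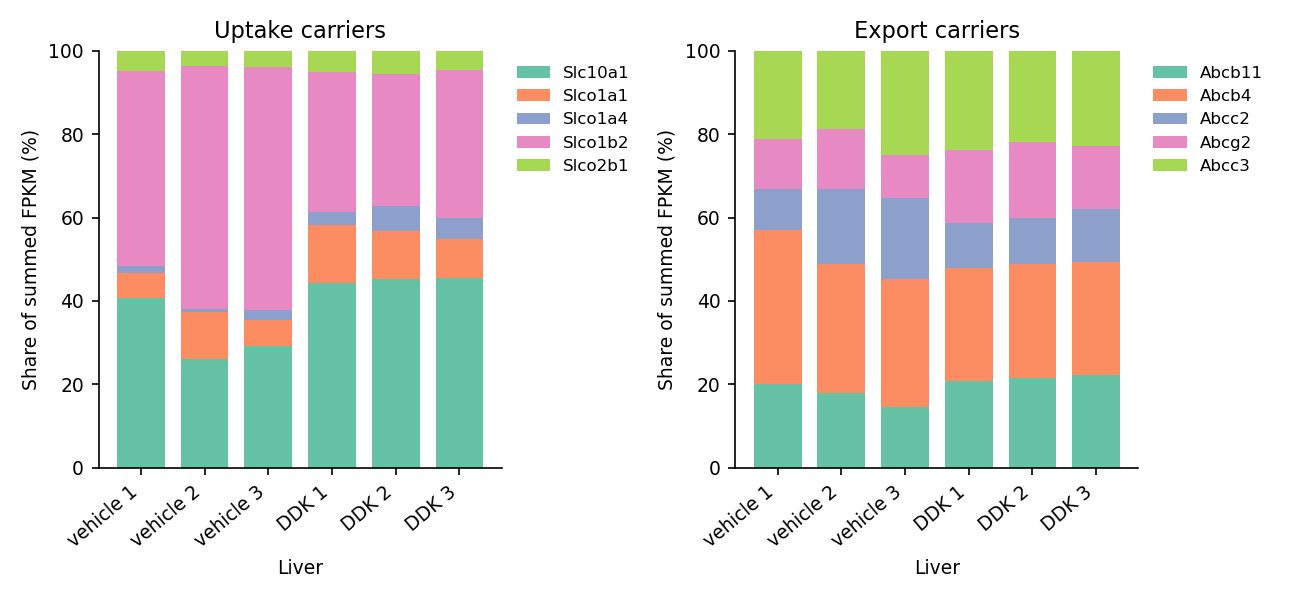
Share (%) of each carrier in the summed FPKM of the 5 uptake carriers (left) and of the 5 export pumps (right), one stacked bar per liver. The Slco1b2 segment is 46.8% to 58.3% in vehicle and 31.5% to 35.4% in DDK livers, and the Abcb4 segment 30.7% to 36.9% and 27.0% to 27.2%.

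Slco1b2 lies in a cluster of organic anion carrier genes on chromosome 6, in which Slco1a4 (ENSMUSG00000030237.14, chr6:141805440-141856199, minus strand) lies 118794 bp beyond its end and Slco1a1 (ENSMUSG00000041698.11, chr6:141907282-141946962, minus strand) follows 51083 bp further on. The 3 neighbours differed in their values. Slco1a4, the OATP1A4 carrier, stood at 7.70, 5.72 and 15.9 in vehicle livers 1 to 3 and at 12.5, 23.4 and 19.4 in DDK livers 1 to 3. The groups overlapped, since DDK liver 1 was below vehicle liver 3. It rose from 9.77 ± 5.38 to 18.5 ± 5.53, a log2 fold change of 0.93 ± 0.32 (95% interval 0.21 to 1.64, limma adjusted p = 0.0438). That call was lost when DDK liver 2 (adjusted p = 0.157), DDK liver 3 (0.0977), vehicle liver 1 (0.104) or vehicle liver 2 (0.137) was left out, with no filter on low values (0.137), after rescaling to TPM (0.0952) and with library weights (0.064). After median-ratio scaling it passed (log2 fold change 1.21, adjusted p = 0.0172), and the groups no longer overlapped, with 13.4, 27.1 and 20.96 in DDK against 7.53, 4.99 and 13.01 in vehicle livers.

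Slco1a1, the OATP1A1 carrier, stood at 28.1, 91.3 and 40.9 in vehicle livers 1 to 3 and at 54.7, 44.6 and 35.96 in DDK livers 1 to 3. The DDK values lay inside the vehicle range, whose coefficient of variation of 62.5% was the largest of the 10 transporters. The difference did not pass (log2 fold change -0.09 ± 0.35, 95% interval -0.87 to 0.69, limma adjusted p = 0.858). In mouse liver Slco1a1 is known as a male-predominant and Slco1a4 as a female-predominant transcript. Transcripts of the Y-linked gene Ddx3y were present in all 6 libraries, at 7.52 to 7.99 in DDK and 5.75 to 14.0 in vehicle livers. Of 4 Y-linked genes tested, 1 was lower in DDK livers, against 30.3% of all genes, and 0 higher. It was Kdm5d, at 0.57 ± 0.06 against 1.42 ± 0.44 (limma adjusted p = 0.0126). All 4 were lower with vehicle liver 1 left out, and 0 with DDK liver 2 or vehicle liver 3 left out. Xist was not among the deposited symbols. The ratio of Slco1a1 to Slco1a4 was 3.65, 15.9 and 2.58 in vehicle livers 1 to 3 and 4.37, 1.90 and 1.85 in DDK livers 1 to 3, and vehicle liver 2 stood apart from the rest. The mean log2 ratio differed by -1.10 between the groups and by -0.30 without vehicle replicate 2.

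Of the 50-base stretches in the longest GENCODE M21 transcript of Slco1a1, 2.26% also occur in transcripts of other genes, nearly all in Slco1a4, and for Slco1a4 the share was 2.73%, nearly all with Slco1a5. Slco1a5 and Slco1a6, the next genes of the cluster, were at an FPKM of at most 0.0109 and 0.0656, too low to test. The labels do not say how fragments common to several genes were counted. Slco2b1 (ENSMUSG00000030737.17, chr7:99657804-99711340, minus strand), the OATP2B1 carrier of steroid sulfates and drugs, was the last uptake carrier. It stood at 22.4, 29.0 and 26.5 in vehicle livers 1 to 3 and at 20.6, 21.6 and 17.8 in DDK livers 1 to 3. The groups did not overlap, but the difference missed the threshold (log2 fold change -0.36 ± 0.14, 95% interval -0.68 to -0.04, limma adjusted p = 0.0668) and was -0.06 after median-ratio scaling (adjusted p = 0.77). Without vehicle replicate 1 it passed (adjusted p = 0.0175), as it did with library weights (0.0146) and after rescaling to TPM (0.0124).

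**Figure D3:**
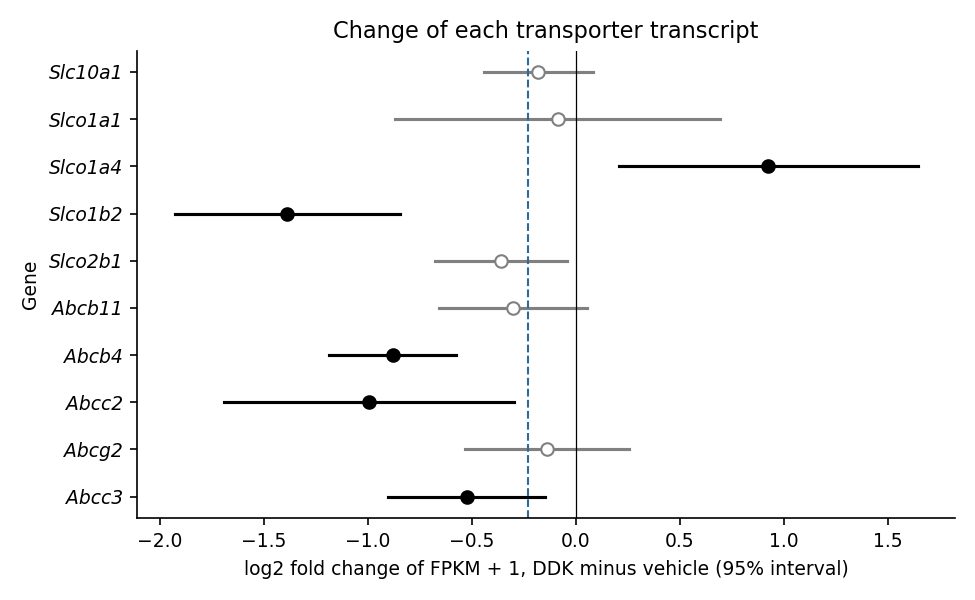
Log2 fold change of FPKM + 1 (x axis, DDK minus vehicle, n = 3 livers per group) with its 95% interval from limma for each transporter. Filled points passed the adjusted p threshold and open points did not, the solid line is 0 and the dashed line is the median of all genes tested (-0.23). Slco1b2 lies lowest at -1.39 and Slco1a4 highest at 0.93.

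On the canalicular side, Abcb4 (ENSMUSG00000042476.12, chr5:8893717-8959231, plus strand) stood at 105, 119 and 109 in vehicle livers 1 to 3 and at 54.9, 55.2 and 70.3 in DDK livers 1 to 3. The groups were far apart relative to their spread, and vehicle liver 1 was close to the other vehicle livers here. The mean fell from 111 ± 7.01 to 60.1 ± 8.78, a log2 fold change of -0.88 ± 0.14 (95% interval -1.18 to -0.57, limma adjusted p = 0.00194). It was called in all 17 alternatives, with log2 fold changes from -1.12 to -0.57 and adjusted p up to 0.0183. The loss of Abcb4 function is known to give bile poor in phospholipid, but bile was not measured here. Of its 50-base stretches, 3.42% occur in other genes, mostly in Abcb1a, which was itself at only 0.52 ± 0.24 in DDK and 0.95 ± 0.31 in vehicle livers.

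Abcb11 (ENSMUSG00000027048.15, chr2:69238282-69342616, minus strand) stood at 57.1, 68.4 and 51.3 in vehicle livers 1 to 3 and at 42.3, 43.9 and 57.0 in DDK livers 1 to 3. DDK liver 3 fell among the vehicle livers, and the difference did not pass (log2 fold change -0.30 ± 0.16, 95% interval -0.66 to 0.05, limma adjusted p = 0.15). After median-ratio scaling it was 0.00 (adjusted p = 0.987), after rescaling to TPM it passed at -0.54 (adjusted p = 0.0255), and with library weights it passed at -0.38 (adjusted p = 0.043). Exons of 2 genes on the other strand overlap those of Abcb11 (Gm13613 and Gm13614) and 2 those of Slco2b1 (Gm15635 and Gm34280), and the library kit named in the labels, NEBNext Ultra RNA, does not keep strand.

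The ratio of Abcb4 to Abcb11 FPKM, also chosen after the values were seen, was 1.84, 1.73 and 2.12 in vehicle livers 1 to 3 and 1.30, 1.26 and 1.23 in DDK livers 1 to 3. No DDK liver reached a vehicle liver, and the mean log2 ratio differed by -0.58, a value between -0.65 and -0.50 when any 1 liver was left out. By contrast, the ratio of Slc10a1 to Abcb11, main bile acid uptake to bile salt export, was 3.32, 3.09 and 3.75 in vehicle livers 1 to 3 and 4.15, 3.95 and 3.05 in DDK livers 1 to 3. Those ranges overlapped, with a difference in mean log2 ratio of 0.13 against SDs of 0.24 in DDK and 0.14 in vehicle livers. With 1 liver left out it lay between 0.04 (DDK liver 1) and 0.26 (DDK liver 3), and the difference between the fitted log2 fold changes of the 2 genes turned from 0.12 to -0.05 after quantile normalization and -0.01 with length correction.

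Abcc2 (ENSMUSG00000025194.5, chr19:43782192-43840740, plus strand) encodes MRP2, which exports bilirubin glucuronides and glutathione conjugates into bile. It stood at 28.2, 69.2 and 69.0 in vehicle livers 1 to 3 and at 22.0, 22.5 and 32.6 in DDK livers 1 to 3. Vehicle liver 1 was within the DDK range, far below the other vehicle livers. The mean fell from 55.5 ± 23.6 to 25.7 ± 5.95, a log2 fold change of -0.99 ± 0.31 (95% interval -1.69 to -0.30, limma adjusted p = 0.0301). Without vehicle replicate 1 the log2 fold change was -1.41 (adjusted p = 0.000927). The call was lost when DDK liver 1 (adjusted p = 0.0856), DDK liver 2 (0.0992), vehicle liver 2 (0.0937) or vehicle liver 3 (0.119) was left out and with no filter on low values (0.107). It was also lost with length correction (-0.68, 0.081), quantile normalization (-0.87, 0.0712) and median-ratio scaling (-0.69, 0.0837).

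Vehicle liver 1 stood apart across the table as well. On the first principal component of all genes tested, which held 75% of the variance, it lay at 14.1, between the DDK livers (-36.4 to -23.6) and vehicle livers 2 and 3 (36.2 and 40.01). Among the transporters it was the lowest vehicle liver for Slc10a1, Slco1a1, Slco1b2, Slco2b1, Abcc2, Abcg2, Abcb4 and Abcc3 as deposited, and for 4 of these 8 after median-ratio scaling (Slco1a1, Slco1b2, Abcc2 and Abcc3).

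Abcg2 (ENSMUSG00000029802.13, chr6:58584523-58695676, plus strand) encodes BCRP, a canalicular pump for sulfated conjugates and porphyrins. It stood at 34.1, 55.0 and 36.6 in vehicle livers 1 to 3 and at 35.3, 37.0 and 39.2 in DDK livers 1 to 3. The DDK values lay inside the vehicle range, and only vehicle liver 2 was above them (log2 fold change -0.14 ± 0.18, 95% interval -0.53 to 0.25, limma adjusted p = 0.548). Without vehicle replicate 2 the log2 fold change was 0.07.

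Abcc3 (ENSMUSG00000020865.16, chr11:94343295-94392997, minus strand) encodes MRP3, the basolateral pump that returns glucuronides and bile acids to blood. It stood at 60.3, 71.5 and 88.9 in vehicle livers 1 to 3 and at 48.4, 44.4 and 58.8 in DDK livers 1 to 3. The groups did not overlap, although DDK liver 3 and vehicle liver 1 were close. The mean fell from 73.6 ± 14.4 to 50.5 ± 7.43, a log2 fold change of -0.52 ± 0.17 (95% interval -0.90 to -0.15, limma adjusted p = 0.0324). The call ended when DDK liver 1 (adjusted p = 0.0954), DDK liver 2 (0.127), vehicle liver 2 (0.0678) or vehicle liver 3 (0.131) was left out and with no filter on low values (0.0773). It also ended with length correction (-0.21, 0.248), quantile normalization (-0.47, 0.072) and median-ratio scaling (-0.22, 0.289). Relative to Abcc2, Abcc3 was 2.14, 1.03 and 1.29 times as abundant in vehicle livers 1 to 3 and 2.20, 1.97 and 1.81 times in DDK livers 1 to 3. The ranges overlapped through vehicle liver 1, and the difference in mean log2 ratio was 0.49, and 0.78 or 0.26 without vehicle replicate 1 or vehicle replicate 2.

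**Figure D4:**
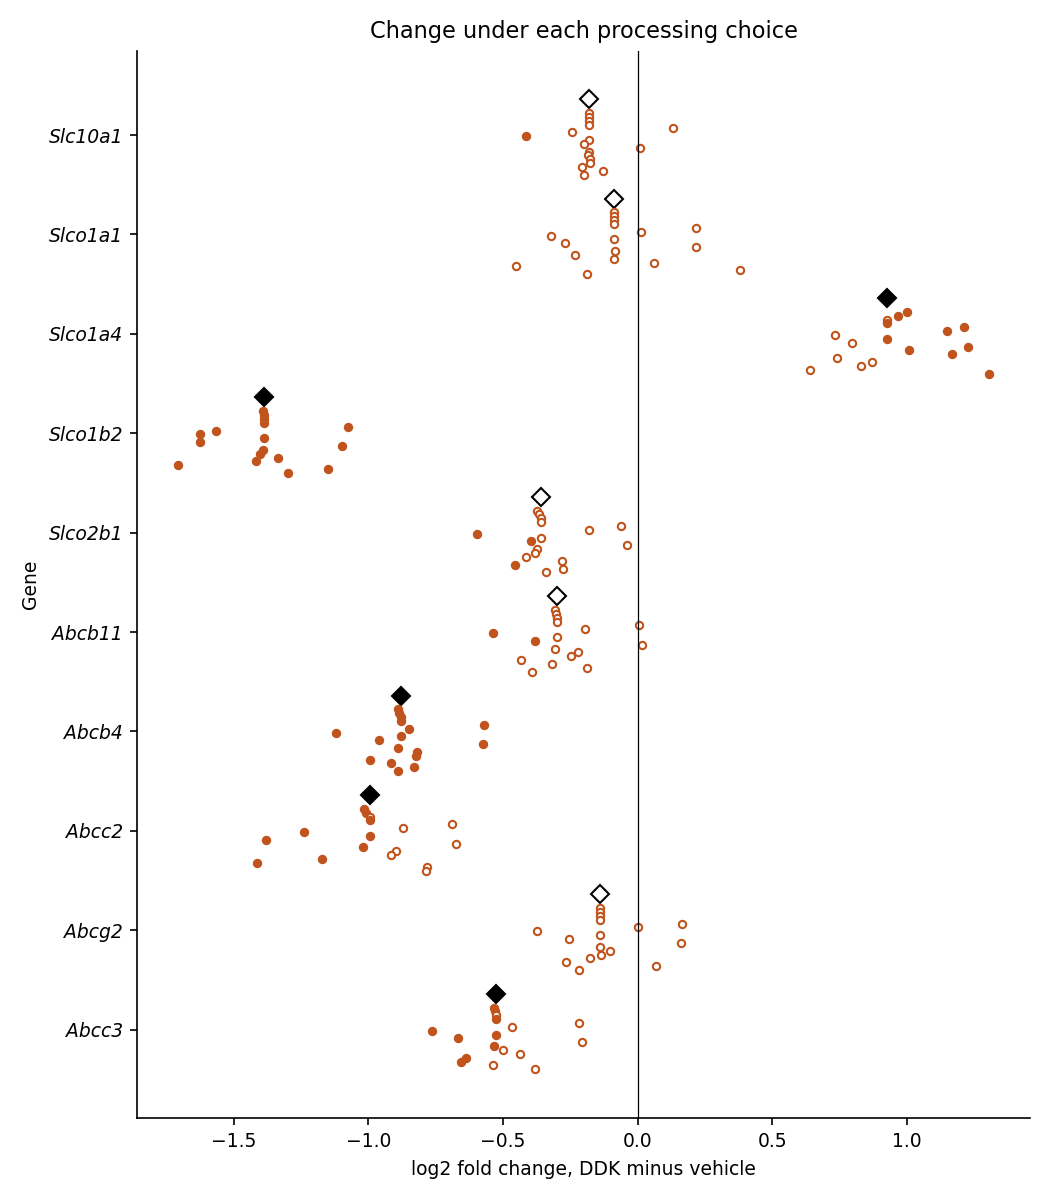
Log2 fold change (x axis, DDK minus vehicle) of each transporter as reported (diamonds) and in 17 alternative analyses (circles), filled where the adjusted p was under 0.05. Slco1b2 and Abcb4 are filled throughout, while Slc10a1, Slco1a1, Abcb11 and Abcg2 have points on both sides of 0.

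Ordered by mean FPKM on the lengths behind the deposited values, the vehicle livers ran Slco1b2 (358), Slc10a1 (198), Abcb4 (111), Abcc3 (73.6), Abcb11 (58.9), Abcc2 (55.5), Slco1a1 (53.4), Abcg2 (41.9), Slco2b1 (25.96) and Slco1a4 (9.77). The ranges over the 3 livers did not overlap between neighbours down to Abcc3, nor between Abcg2, Slco2b1 and Slco1a4, while neighbours from Abcc3 to Abcg2 overlapped. In DDK livers the order was Slc10a1 (174), Slco1b2 (130.0), Abcb4 (60.1), Abcc3 (50.5), Abcb11 (47.8), Slco1a1 (45.1), Abcg2 (37.2), Abcc2 (25.7), Slco2b1 (19.98) and Slco1a4 (18.5). There the ranges of Slc10a1, Slco1b2 and Abcb4 were apart, as were those of Abcg2, Abcc2 and Slco2b1, and the other neighbours overlapped. These lengths were shorter than the GENCODE M21 exons for Abcb4 (4175 against 9383 bases), Abcg2 (3697 against 8153) and Abcc2 (5645 against 8532). For Abcb11 the length was longer (5859 against 5146), and the order depends on these lengths. The GENCODE lengths are unions of all annotated exons of a gene, not lengths of the transcripts expressed. With the GENCODE lengths Abcb4 moved from the third to the fifth place in vehicle livers (49.3, below Abcb11 at 67.1 and Abcc3 at 64.8) and to the sixth in DDK livers. Summed uptake was 383 to 397 in DDK and 466 to 810 in vehicle livers, and summed export 203 to 258 and 285 to 383. The log2 ratio of summed uptake to summed export was 0.82 ± 0.22 in DDK and 0.90 ± 0.19 in vehicle livers, a difference smaller than either SD.

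The gene most like each changed transporter was sought among 10460 other genes as the smallest root mean square difference between log2(FPKM + 1) profiles over the 6 libraries, centred on the vehicle mean. For Slco1b2 these were Mmut (0.08), Galnt10 (0.12) and Caprin1 (0.13), and for Abcc2 Ern1 (0.04), Gar1 (0.08) and Ddx3x (0.09). Mmut, methylmalonyl-CoA mutase, stood at 23.1, 47.5 and 46.0 in vehicle and 13.4, 13.3 and 14.4 in DDK livers 1 to 3. Galnt10 was low, at 1.15, 2.75 and 2.60 in vehicle and 0.24, 0.21 and 0.33 in DDK livers. It passed the filter of 0.5 through the vehicle livers only, and its DDK values lay below the pseudocount of 1. Its likeness to Slco1b2 is therefore partly set by the filter and the pseudocount. The closest gene to Abcb4 was Crp (0.04), which encodes C-reactive protein, at 205, 229 and 226 in vehicle and 107, 109 and 135 in DDK livers. Terf2ip (0.04) was closest to Abcc3 and Fos (0.21) to Slco1a4, so Slco1a4 had no close match. These are descriptions over 6 libraries that share the group difference.

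Other uptake carriers also moved in both directions. Of 17 listed, 13 were high enough to test, and 7 were lower and 2 higher, against 30.3% and 10.2% of all genes tested (median log2 fold change -0.33, against -0.23). Slc22a3, an organic cation carrier, fell by 0.79 on the log2 scale (limma adjusted p = 0.00292) and Slc22a23 fell by 0.72 (adjusted p = 0.00772). Slc22a18 rose from 66.4 ± 10.5 to 107 ± 11.6 (log2 fold change 0.68 ± 0.15, adjusted p = 0.0068). Each of these 3 calls held in all 17 alternatives. Slc10a2, counted among the lower carriers, was also on the cholangiocyte marker list (log2 fold change -0.78, adjusted p = 0.0232), and its call held in 9 of 17 alternatives. The other increase, named after its value was seen, was Slc22a7, the organic anion carrier OAT2, at 3.23, 10.02 and 2.19 in vehicle livers 1 to 3 and 15.3, 20.6 and 13.03 in DDK livers 1 to 3. The DDK livers were all above the vehicle livers (log2 fold change 1.69 ± 0.38, adjusted p = 0.00842), a call lost only without a filter on low values (0.0511). With 1 liver left out 5 to 6 were lower and 2 higher, after median-ratio scaling 5 were lower and 3 higher, and with no filter on low values 5 and 1.

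Among 19 other export pumps and carriers, 14 were tested, and 2 were lower and 1 higher, against 30.3% and 10.2% of all genes (median -0.35, against -0.23). Abca6, a lipid transporter relative, fell by 1.43 on the log2 scale (limma adjusted p = 0.00774, held in all 17 alternatives). Abcc10 rose by 0.64 (adjusted p = 0.0111, lost without DDK replicate 2, 0.0516). Abca1, the cholesterol efflux pump, fell by 0.66 (adjusted p = 0.0446), a call lost in 9 of 17 alternatives. The count of lower genes was 6 with vehicle liver 1 left out and 1 with DDK liver 1 or 2, or vehicle liver 2 or 3, left out. The count of higher genes was 0 with DDK liver 2 and 2 with vehicle liver 3 left out, and after median-ratio scaling 2 were higher and 1 lower. After rescaling to TPM 10 were lower, with library weights 9, and with quantile normalization or no filter 1. Abcc4 (MRP4), the other basolateral bile acid pump, was at 0.103 to 0.199 in DDK and 0.257 to 0.466 in vehicle livers, and Slc51a, a subunit of the basolateral organic solute carrier, was listed at 0 in all 6 libraries. Both were too low to test.

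Of 14 genes that anchor or traffic canalicular and sinusoidal proteins, 3 were lower and 1 higher, against 30.3% and 10.2% of all genes (median -0.29, against -0.23). Pdzk1, a scaffold known to hold OATP1A1 at the sinusoidal membrane, stood at 32.6, 34.9 and 30.4 in vehicle livers 1 to 3 and at 15.2, 12.8 and 16.7 in DDK livers 1 to 3. The groups were apart (log2 fold change -1.08 ± 0.14, limma adjusted p = 0.000928), and the limma call held in all 17 alternatives. Msn (moesin) fell by 0.91 (adjusted p = 0.0105, lost with length correction, 0.0529), and the kinase gene Stk11 rose by 0.52 (adjusted p = 0.0109, lost under TPM, 0.0894). Ezr (ezrin) fell by 0.44 at an adjusted p of 0.0496, a call lost in 11 of 17 alternatives. Rdx (radixin), which anchors MRP2 at the canaliculus, stood at -0.43 ± 0.18 (adjusted p = 0.0837). With vehicle liver 1 left out, 9 of the 14 were lower, and after median-ratio scaling 2 were lower and 3 higher. After rescaling to TPM 7 were lower and 0 higher, with library weights 10 and 2, with quantile normalization 2 and 2, and with length correction 1 and 3.

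Of 21 transcriptional regulators of these transporters, 8 were lower and 4 higher, against 30.3% and 10.2% of all genes (median -0.29, against -0.23). Cebpa, a hepatocyte differentiation factor, fell by 0.73 on the log2 scale (limma adjusted p = 0.0034) and Ppara, the fatty acid receptor, fell by 0.78 (adjusted p = 0.00946). Nr1i3, the drug sensor CAR, stood at 57.6, 31.5 and 46.8 in vehicle livers 1 to 3 and at 113, 114 and 68.1 in DDK livers 1 to 3 (log2 fold change 1.10 ± 0.25, adjusted p = 0.00793). Nr0b2, the repressor SHP that is induced by FXR, stood at 25.1, 25.8 and 43.5 in vehicle and at 48.7, 59.2 and 63.2 in DDK livers (0.88 ± 0.21, adjusted p = 0.00979). For both genes every DDK liver was above every vehicle liver, and these 4 calls held in all 17 alternatives. Nr1h4, the bile acid receptor FXR itself, stood at 0.27 ± 0.13 (adjusted p = 0.126), and passed after median-ratio scaling (0.58, adjusted p = 0.031). The count of lower regulators was 2 after median-ratio scaling, 2 with DDK liver 1, DDK liver 2 or vehicle liver 3 left out, and 3 with vehicle liver 2 left out. It was 12 after rescaling to TPM or with library weights, 4 with no filter, and 2 with quantile normalization or length correction. The count of higher ones was 2 with DDK liver 2 left out and 2 after rescaling to TPM. Of 5 genes of bile acid synthesis and conjugation, 3 were lower and 0 higher, against 30.3% and 10.2% of all genes (median -0.44, against -0.23). All 3 were synthesis genes, and neither conjugation gene passed as deposited. The count of lower genes was 1 after median-ratio scaling or length correction and 1 with DDK liver 1 left out.

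Markers of the cell types in whole liver were counted in the same way, against 30.3% of all genes tested lower and 10.2% higher. Hepatocyte markers were abundant in every library, with a summed FPKM of 77125 to 82136 in DDK and 42359 to 58325 in vehicle livers, and 4 of 9 were higher and 1 lower. Of 9 macrophage markers 6 were lower (summed FPKM 142 to 359 in DDK, 477 to 803 in vehicle), of 7 stellate cell markers 5 (58.3 to 82.5 against 130 to 163) and of 8 endothelial markers 4 (43.7 to 55.99 against 69.1 to 101). These sums weigh abundant genes most. Mean FPKM in DDK and vehicle livers was 35473 and 19383 for Alb, 38.2 and 224 for Lyz2, and 57.4 and 117 for Dcn. Tat, the lower hepatocyte marker, moved against its sum. Median log2 fold changes were 0.30 for hepatocyte, -1.28 for macrophage, -0.86 for stellate cell and -0.61 for endothelial markers, against -0.23 for all genes tested. Of 7 cholangiocyte markers tested 1 was higher and 2 lower (41.6 to 66.95 against 55.1 to 76.1), near the shares of all genes, and Cftr and Ggt1 were too low to test. After median-ratio scaling 4 hepatocyte markers were higher and 0 lower, and 5 macrophage, 5 stellate cell and 3 endothelial markers were lower. Cholangiocyte markers then stood at 1 higher and 0 lower, and all genes at 18.4% higher and 15.4% lower. With quantile normalization 2 hepatocyte markers were higher and 3 lower. Abcc3 is also made by cholangiocytes and Abcg2 by endothelium. The part of these marker differences in the transporter values was not tested. Higher hepatocyte markers numbered 1 with DDK liver 2 left out and 2 with vehicle liver 2 or 3 left out, and the lower one was lost with DDK liver 1 or 2, or vehicle liver 2 or 3, left out. The higher cholangiocyte marker was lost with DDK liver 1 or 3, or vehicle liver 2 or 3, left out. Lower cholangiocyte markers numbered 0 with DDK liver 2 or vehicle liver 2 left out and 1 with DDK liver 1, vehicle liver 1 or vehicle liver 3 left out.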

How the data were processed

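RNA-seq of 3 DDK and 3 vehicle livers was used as the authors' deposited FPKM for 22173 symbols, 1 column per liver. The genome build was GRCm38 (mm10), per the submitters' processing notes, while an aligner, counter or annotation is not given in the sources used here. Whole fragments were recovered from the deposited FPKM: 100.0% of the values of 16573 genes above 0 were whole within 0.01 fragment, with library totals from 26576291 to 30237490 for DDK and from 33963898 to 36105315 for vehicle. Intervals and counting errors cover these libraries only, and the labels name no batch.

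The 10681 genes that reached an FPKM of 0.5 in 3 or more libraries were tested on log2(FPKM + 1) with limma 3.58.1 in R 4.3.3 (variance trend, Benjamini-Hochberg over all genes tested), which was checked on simulated data. The simulation changed few genes, as often up as down, so it does not cover a shift of many genes the same way. The pseudocount understates changes of low genes. The 17 alternatives were pseudocounts of 0.1 and 0.5, no filter, a filter at 1 FPKM, rescaling to TPM, quantile normalization, median-ratio scaling, a block on replicate number, library weights, a lowess correction for gene length (span 0.3), voom on the recovered fragments, and each of the 6 libraries left out. The same alternatives for gene lists, 2 of the ratios, and GENCODE exon lengths for the order of levels, were added after the data were seen. The members and lists were chosen with earlier results of these data known. Named genes were the 10 transporters, up to 4 genes of smallest p past the threshold in each list of carriers, anchors and regulators, and the genes most like a changed transporter in profile (1 each, 3 for the 2 largest changes). Slc22a7, Abcc4, Slc51a, Abcb1a, Rdx, Nr1h4, Slc10a2, Kdm5d, Alb, Lyz2, Dcn and Tat were named after their values were seen. A gene that the rule names is not reported here. Gene positions are from GENCODE M21 and promoters from RefSeq. Marker lists covered hepatocytes, cholangiocytes, endothelium, macrophages, stellate cells and sex-linked genes.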

Additional observations from a re-analysis of the deposited data

How the results depend on the processing

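Slco1b2 and Abcb4 kept their direction and call in all 17 alternatives. The count of genes called over the whole table was 4327, and 2348 to 5686 with 1 library left out, lowest without DDK replicate 2. With library weights it was 6268. Higher calls made up 1093 of 4327 as deposited and 1963 of 3613 after median-ratio scaling, 1886 of 3629 after quantile normalization, 1722 of 3566 after length correction and 631 of 5560 under TPM. The count of transporters higher in DDK was 1, became 0 without a filter, under TPM and with library weights, and was 0 to 1 with 1 library left out. The count lower in DDK was 4, and became 2 without a filter and with length correction, quantile normalization or median-ratio scaling. It became 7 under TPM and 6 with library weights, and was 2 to 5 with 1 library left out. Changes that missed the threshold turned sign as follows. After median-ratio scaling Slc10a1 was 0.13, Slco1a1 0.22, Abcb11 0.0045 and Abcg2 0.16. After length correction they were 0.0073, 0.22, 0.017 and 0.16. After quantile normalization Slco1a1 was 0.014 and Abcg2 0.0017. With 1 library left out, Slco1a1 ranged from -0.45 to 0.38 (0.06 without DDK replicate 3, 0.38 without vehicle replicate 2) and Abcg2 from -0.27 to 0.069 (the latter without vehicle replicate 2). For each of these the cause was not tested. With the replicate block, 4134 genes and the same 5 transporters were called. Same-numbered livers did not deviate together (correlations 0.14, -0.15 and 0.06), and DDK livers 2 and 3 correlated best with a vehicle liver of another number, so the numbers were not taken as pairs. At 775 to 2469 fragments per library, Slco1a4 was the least deeply covered transporter, with a counting error of 3.59% at most.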
